A study of Bos taurus with 6 samples.

Results

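The zinc homeostasis genes of bovine primordial follicles (PMF) were described: 14 ZIP transporters (SLC39A1 to SLC39A14), 10 ZnT transporters (SLC30A1 to SLC30A10), the metallothioneins MT1A, MT1E, MT2A, MT3 and MT4, and the zinc sensor MTF1. They were chosen by name, as a list of 30 genes, of which 29 were found by symbol among the 23704 genes of the files. At least 1 estimated read was counted for 28 of them, and 26 had at least 10 counts in at least 3 libraries and were tested, among 14639 genes tested in all. The 4 members without a test were MT1E, SLC39A2, SLC39A5 and SLC30A8.

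RNA was sequenced from pools of PMF, each an oocyte with its single layer of flattened pre-granulosa cells, in 3 libraries at T0 and 3 libraries at T16. All ovaries of the study came from Holstein Friesian dairy cows in the second year of life, collected at an abattoir, and the follicles were isolated mechanically and pooled by morphology. In the study's methods, isolated follicles had a short recovery in medium with insulin, transferrin, selenite and FSH before collection. This is taken here to hold for the T0 follicles, though the paper does not name T0. T16 follicles were taken after 16 h of culture, for which the medium is not given in the sources used here. Whether different animals gave the different pools is not given in the sources used here, so every adjusted p-value rests on pool-to-pool spread, which may be in part technical. The comparison asks which transcripts differ in PMF once they have been cultured.

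Zinc is a structural and catalytic part of many proteins and is kept at a low free concentration in the cytosol. ZIP proteins move zinc into the cytosol, from outside the cell or out of compartments, and ZnT proteins move it the other way, out of the cell or into vesicles and the secretory pathway. Metallothioneins are small cysteine-rich proteins that bind zinc and copper, and MTF1 is the transcription factor that senses zinc and switches on metallothionein genes and SLC30A1. Oocytes are known to take up zinc while they mature and to release it after fertilization, and ZIP6 and ZIP10 (SLC39A6 and SLC39A10) are known zinc importers of the oocyte.

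The libraries held 22174653 to 36703016 estimated counts, of which 19816128 to 33126985 were matched to genes. Scaled to the matched counts, 3 counts, taken as the limit of detection, equalled 0.0906 to 0.151 CPM (counts scaled to library depth). This limit covers counting error only. Oocyte transcripts differed widely within each group. The summed TPM (a transcript's abundance scaled by its length and by the depth of the library) of 14 oocyte markers was 469, 1966 and 2722 in T0 replicates 1, 2 and 3, and 1796, 82.1 and 737 in T16 replicates 1, 2 and 3. All 14 oocyte and all 12 pre-granulosa markers passed the filter on low counts. T0 replicate 1 and T16 replicate 2 were thus the libraries poorest in oocyte transcripts, and values without them are given where they change a call. In bulk RNA, fewer cells of a type and less RNA per cell cannot be told apart.

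No zinc homeostasis gene passed an adjusted p of 0.05 in edgeR's quasi-likelihood test, in either direction. This test called few genes of any kind, 0.0342% of all tested genes as higher at T16 and 0.00683% as lower. At an unadjusted p under 0.05 it gave 4 members, 2 of them higher at T16 (SLC30A7 and SLC39A9) and 2 lower (MT1A and MT2A). Each pair was 7.69% of the 26 tested members, against 8.61% of all tested genes higher and 5.14% lower. DESeq2, the alternative tool, called 2 members lower (7.69%), MT1A and MT2A, and 0 higher, where it called 2.96% of all genes lower and 4.06% higher. limma on log2(TPM + 1) called 0 members, where it called 0.458% of all genes higher and 0.246% lower. At an unadjusted p under 0.05 it gave 2 members higher (7.69%, against 8.11% of all genes) and 5 lower (19.2%, against 9.22%).

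By position alone, 5 members (19.2%) had every T16 library above every T0 library in TPM, where 11.5% of all tested genes did. These were SLC39A9, SLC30A1, SLC30A4, SLC30A5 and SLC30A7. The 4 members (15.4%) with every T16 library below every T0 library were MT1A, MT2A, SLC30A2 and SLC30A3, against 11.6% of all tested genes. The median log2 fold change of T16 against T0 was 0.15 over the 26 members, 0.34 over 12 ZIP, 0.37 over 9 ZnT and -2.20 over 4 metallothionein genes, beside -0.08 over all tested genes.

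**Figure D1:**
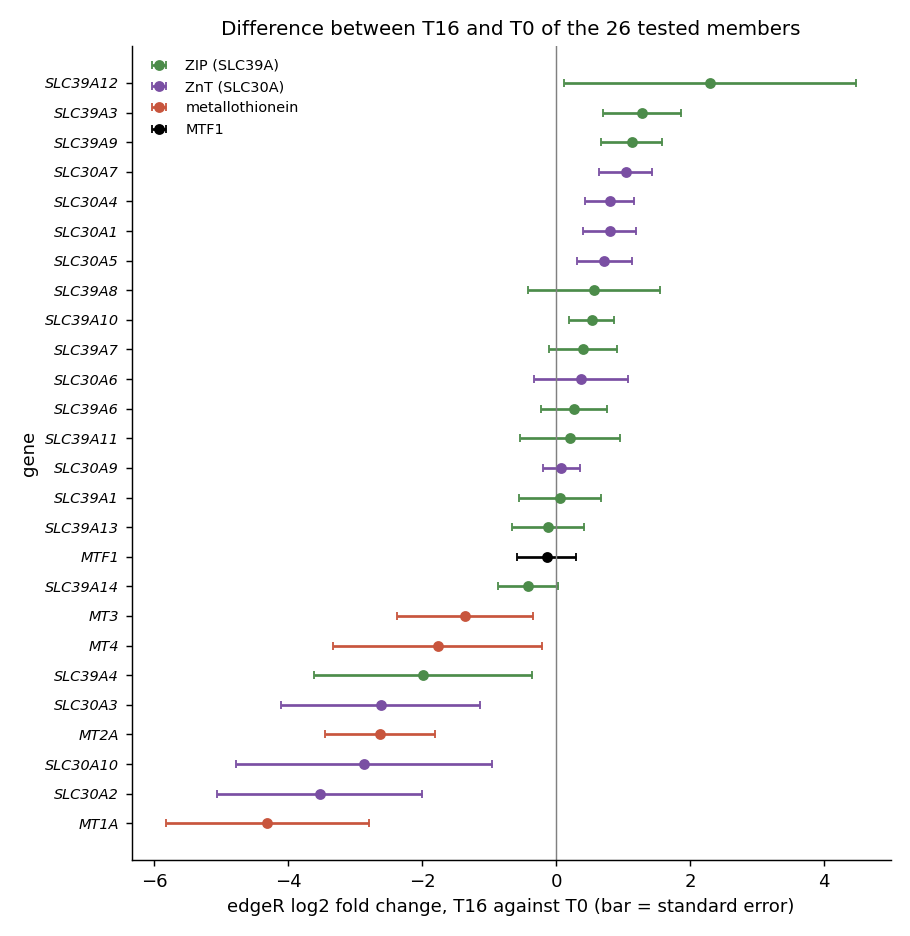
edgeR log2 fold change of T16 against T0 (x axis) for the 26 tested members, ordered by value, with bars for the standard error and colours for the gene class. The 4 metallothionein genes lie between -4.31 and -1.36, and the ZIP and ZnT genes spread to both sides of 0; no member passed the adjusted threshold.

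Metallothionein transcripts were lower at T16 in sum. The 4 metallothionein genes together reached 367, 329 and 293 TPM in T0 replicates 1, 2 and 3, and 62.2, 34.2 and 107 TPM in T16 replicates 1, 2 and 3. The groups did not overlap, and the mean was 4.85 times as high at T0 (330 ± 36.7 TPM, SD, n = 3) as at T16 (68.0 ± 36.99 TPM, SD, n = 3; sums were not tested).

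MT2A, a metallothionein made in most tissues, had the highest mean of its class at T0, within the spread of MT3. It had 267, 129 and 91.1 TPM in T0 replicates 1, 2 and 3 and 8.44, 27.6 and 36.1 TPM in T16 replicates 1, 2 and 3. Every T16 library lay below the lowest T0 library, and the mean was 6.74 times as high at T0 (162 ± 92.6 TPM) as at T16 (24.1 ± 14.2 TPM). The log2 fold change was -2.63 (SE 0.82) with an unadjusted p of 0.0142 and an adjusted p of 0.214 in edgeR, and -2.67 (SE 0.79) with an adjusted p of 0.0161 in DESeq2. The edgeR value was -1.93 without T0 replicate 1, -3.24 without T16 replicate 3 and -1.94 without both oocyte-poor libraries.

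MT1A, a relative of MT2A, had the same order of libraries at T0 and few counts at T16. Its 60.4, 37.5 and 14 TPM in T0 replicates 1, 2 and 3 rested on 229, 177 and 48 counts. In T16 replicates 1, 2 and 3 it had 0, 2.36 and 2.67 TPM, from 0, 8 and 16 counts. The groups were again apart, with means of 37.3 ± 23.2 TPM at T0 and 1.68 ± 1.46 TPM at T16, a ratio of 22.3. edgeR gave a log2 fold change of -4.31 (SE 1.51, adjusted p = 0.263) and DESeq2 one of -4.36 (SE 1.33, adjusted p = 0.0207). The edgeR value was -3.64 without T0 replicate 1, -5.03 without T16 replicate 3 and -3.8 without both oocyte-poor libraries.

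MT1E could not be measured under its own name. The gene table lists that symbol only as a synonym of MT1A and of a pair of unnamed genes, LOC613358 and LOC768319, which lie between MT1A and MT2A in the order of genes, with MT3 and MT4 next to MT2A. LOC613358 had 63.1, 33.1 and 5.50 TPM in T0 replicates 1, 2 and 3 and 0, 13.4 and 0.545 TPM in T16 replicates 1, 2 and 3. For LOC768319 the values were 14.4, 10.5 and 1.85 TPM at T0 and 0.805, 3.14 and 1.61 TPM at T16. Both had higher means at T0, but a T16 library overlapped the T0 range in each, and edgeR gave adjusted p-values of 0.557 and 0.548. Metallothioneins are a multigene family, and their sequences were not compared here, so the split of reads between MT1A, MT2A and the LOC genes may be uncertain.

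MT3, known best from the brain, was distributed differently among the libraries. It had 39.0, 156 and 181 TPM in T0 replicates 1, 2 and 3 and 53.0, 4.21 and 66.0 TPM in T16 replicates 1, 2 and 3. T0 replicate 1 lay below 2 of the T16 libraries, so the groups overlapped. Means were 125 ± 75.7 TPM at T0 and 41.1 ± 32.6 TPM at T16 (log2 fold change -1.36, SE 1.01, adjusted p = 0.634 in edgeR). MT4, a gene of squamous epithelia, was scarce, at 0.547, 7.59 and 7.29 TPM at T0 and 0.810, 0 and 2.64 TPM at T16, from at most 34 counts in a library. Its log2 fold change was -1.77 (SE 1.56, adjusted p = 0.703 in edgeR), and DESeq2 gave it no adjusted p.

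The mix of metallothioneins differed between the libraries of each group. MT2A made up 72.7%, 39.0% and 31.0% of the summed metallothionein TPM in T0 replicates 1, 2 and 3, and 13.6%, 80.8% and 33.6% in T16 replicates 1, 2 and 3. MT3 held 10.6%, 47.3% and 61.7% at T0 and 85.1%, 12.3% and 61.4% at T16. MT2A led in the 2 libraries poorest in oocyte transcripts, and MT3 led in the 4 others.

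**Figure D2:**
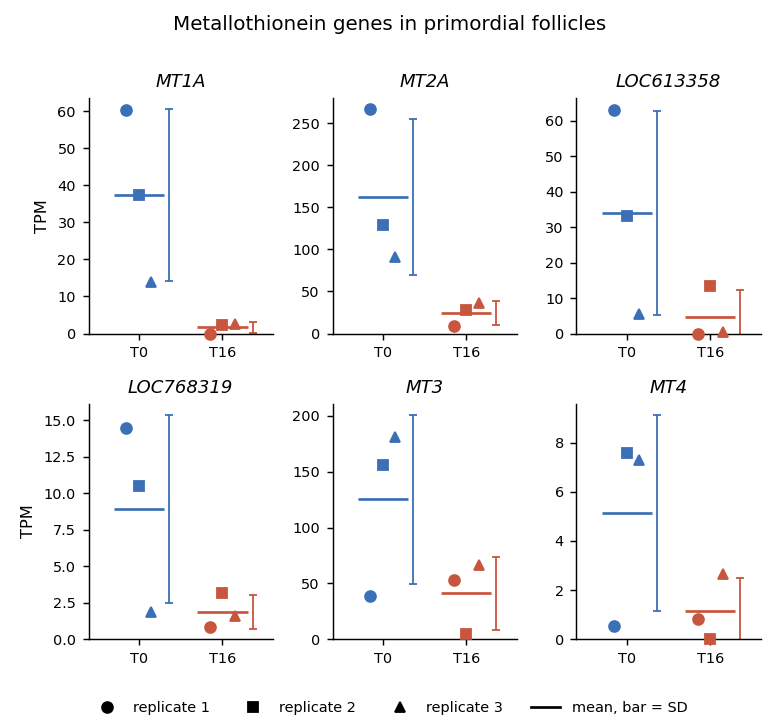
TPM (y axis, from 0) of the 4 metallothionein genes and the LOC genes that share the MT1E synonym, in the 3 T0 and 3 T16 libraries; symbols mark replicates, lines means, and bars the SD, cut at 0. MT1A and MT2A do not overlap between groups, while MT3 is lowest in T0 replicate 1 and T16 replicate 2 within their groups.

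Marker lists of cell types were set beside these values, and among them only the smooth muscle sum did not overlap between groups. The summed TPM of 6 smooth muscle markers was 434, 329 and 111 in T0 replicates 1, 2 and 3 and 23.4, 105 and 55.6 in T16 replicates 1, 2 and 3. It was thus 4.77 times as high on average at T0, without overlap, and its order among the T0 libraries was that of MT1A and MT2A. Among the T16 libraries it was highest in replicate 2, whereas MT1A and MT2A were highest in replicate 3. Of the 5 smooth muscle markers that were tested, 2 were below in every T16 library, against 11.6% of all tested genes. So were 2 of 10 stroma, 1 of 14 oocyte and 3 of 12 pre-granulosa markers, and 1 pre-granulosa marker was above. None of the 6 smooth muscle markers was at 0 in all libraries of a group. The 12 pre-granulosa markers summed to 1064, 1758 and 967 TPM in T0 replicates 1, 2 and 3. Their sums in T16 replicates 1, 2 and 3 were 661, 1888 and 727 TPM, with overlap between groups. The 10 stroma markers summed to 2954, 1330 and 1209 TPM in T0 replicates 1, 2 and 3. In T16 replicates 1, 2 and 3 their sums were 289, 780 and 1746 TPM, with overlap between groups. This order of libraries was that of MT1A and MT2A, both within T0 and within T16. MT3 in turn had the order of the oocyte sum within T0. Within T16 it was lowest in the oocyte-poor replicate 2 but highest in replicate 3, where the oocyte sum was not the highest. The part of these cell types in the metallothionein values was not tested. Endothelial markers summed to 4.89 to 18.0 TPM and leukocyte markers to 2.74 to 53.9 TPM over the 6 libraries, with overlap between groups.

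**Figure D3:**
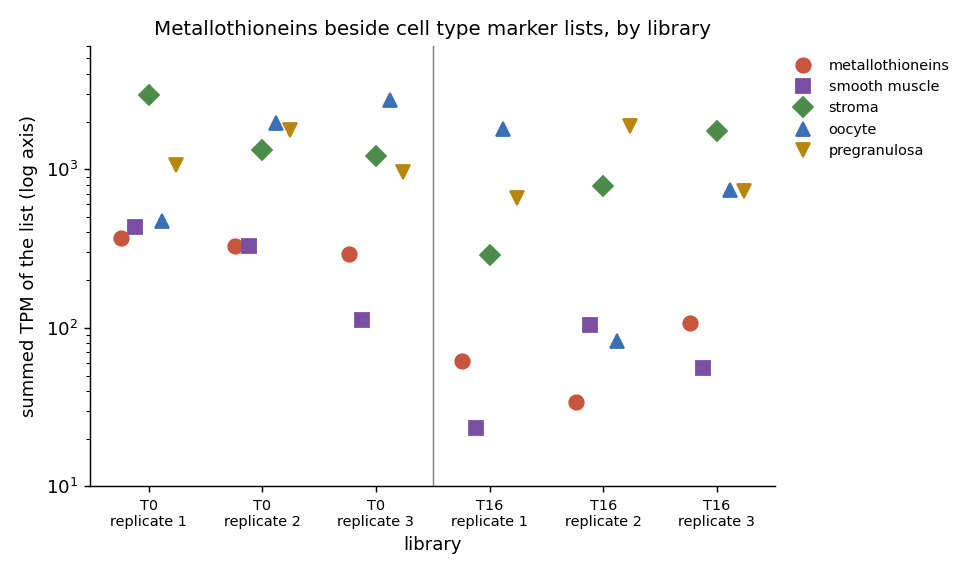
Summed TPM (log axis) of the 4 metallothionein genes and of marker lists for smooth muscle, stroma, oocyte and pre-granulosa cells in each library. Metallothioneins and smooth muscle markers are each lower in every T16 library than in any T0 library, while the oocyte list is lowest in T16 replicate 2 at 82.1 TPM and second lowest in T0 replicate 1 at 469 TPM.

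MTF1, the zinc-sensing activator of the metallothionein genes, did not follow them. It had 14.4, 18.8 and 26.9 TPM in T0 replicates 1, 2 and 3 and 26.6, 16.9 and 7.73 TPM in T16 replicates 1, 2 and 3. The groups overlapped over most of their range, with means of 20.03 ± 6.31 and 17.1 ± 9.42 TPM (log2 fold change -0.14, SE 0.44, adjusted p = 0.931 in edgeR). The sign of this difference turned when T0 replicate 3 or T16 replicate 3 was left out. Of its 2 transcripts, XM_005204693 held 26.2%, 31.2% and 36.8% of the gene's TPM at T0 and 45.0%, 15.5% and 3.28% at T16.

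Among the 9 tested ZnT genes, 4 (44.4%) had every T16 library above every T0 library in TPM, against 11.5% of all tested genes. In CPM 3 did, as did 1934 of the 14639 tested genes. SLC30A7 had the lowest p of the 4. SLC30A7 (ZnT7), which loads zinc into the Golgi for enzymes such as alkaline phosphatase, had 58.3, 33.2 and 30.7 TPM in T0 replicates 1, 2 and 3 and 88.3, 76.1 and 75.6 TPM in T16 replicates 1, 2 and 3. No libraries overlapped, and the mean at T16 (80.0 ± 7.17 TPM) was 1.96 times that at T0 (40.8 ± 15.3 TPM). The log2 fold change of 1.04 (SE 0.40) had an unadjusted p of 0.0353 and an adjusted p of 0.312 in edgeR.

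SLC30A5 (ZnT5), which pairs with SLC30A6 (ZnT6) in the same pathway, had 62.0, 31.9 and 33.6 TPM at T0 and 70.7, 66.2 and 63.3 TPM at T16. The T16 libraries lay above all T0 libraries in TPM, though by a narrow margin over T0 replicate 1, and the groups overlapped in CPM. Its log2 fold change was 0.72 (SE 0.41, adjusted p = 0.506). SLC30A6 had 16.9, 5.998 and 4.67 TPM at T0 and 12.1, 11.04 and 11.6 TPM at T16, and its groups overlapped because T0 replicate 1 held the highest value (log2 fold change 0.37, SE 0.70, adjusted p = 0.877).

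SLC30A4 (ZnT4), of endosomes and the trans-Golgi, had 18.4, 15.3 and 13.01 TPM at T0 and 30.9, 25.8 and 20.5 TPM at T16. SLC30A1 (ZnT1), the exporter of the plasma membrane and a target of MTF1, had 19.1, 16.6 and 20.5 TPM at T0 and 48.5, 22.8 and 21.9 TPM at T16. Neither gene's groups overlapped, but for SLC30A1 the lowest T16 library was close to the highest T0 library and the mean of 31.1 ± 15.1 TPM rested on T16 replicate 1. Both had a log2 fold change of 0.80, with SE 0.36 and adjusted p = 0.385 for SLC30A4 and SE 0.40 and adjusted p = 0.447 for SLC30A1. Without T16 replicate 1, the value of SLC30A1 was 0.34.

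A pair of ZnT genes, SLC30A2 and SLC30A3, was lower in every T16 library, without an edgeR call. They were 22.2% of the 9 tested ZnT genes, against 11.6% of all tested genes. SLC30A2 (ZnT2), which moves zinc into vesicles and milk, had 47.2, 31.1 and 18.0 TPM in T0 replicates 1, 2 and 3 and 0, 5.24 and 1.32 TPM in T16 replicates 1, 2 and 3. The groups were well apart, with means of 32.1 ± 14.6 and 2.19 ± 2.73 TPM, a ratio of 14.7. The order of the libraries within T0 was that of MT1A, MT2A and the smooth muscle and stroma lists. Within T16 it was that of the smooth muscle and pre-granulosa lists, but not of MT1A, MT2A or the stroma list. The part of these cell types in these values was not tested. The log2 fold change was -3.53 (SE 1.53), with an adjusted p of 0.372 in edgeR and 0.0744 in DESeq2. The edgeR value was -2.98 without T16 replicate 1, -5.35 without T16 replicate 2 and -4.87 without both oocyte-poor libraries.

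SLC30A3 (ZnT3), known for filling synaptic vesicles with zinc, had 8.01, 32.1 and 40.5 TPM at T0 and 6.13, 0 and 5.13 TPM at T16. It followed the oocyte markers within T0, lowest in replicate 1 and highest in replicate 3, and the oocyte-poor T16 replicate 2 held none. Means were 26.9 ± 16.9 and 3.75 ± 3.29 TPM, a ratio of 7.16, without overlap (log2 fold change -2.62, SE 1.48, adjusted p = 0.506 in edgeR). The part of the oocyte share in these values was not tested.

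SLC30A9, linked to mitochondria, had the narrowest range of the ZnT genes with counts in every library, the highest library being 1.62 times the lowest. It had 39.1, 35.97 and 42.3 TPM at T0 and 47.4, 40.4 and 29.3 TPM at T16, with means of 39.1 ± 3.17 and 39.04 ± 9.16 TPM. Its log2 fold change was 0.08 (SE 0.28, adjusted p = 0.935). SLC30A10, a manganese exporter, had at most 3.61 TPM and no count in T16 replicates 2 and 3 (log2 fold change -2.87, SE 1.91, adjusted p = 0.587). SLC30A8, of the insulin granule, had 0 to 2 counts in a library, below the 3 counts taken as the limit of detection.

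By mean level at T0, SLC30A5 (42.5 TPM), SLC30A7 (40.8 TPM) and SLC30A9 (39.1 TPM) led the ZnT genes, and these neighbours did not differ beyond their spread. SLC30A2 and SLC30A3 came next, and at T16 they were below SLC30A6. The summed ZnT level overlapped between groups, at 206 to 270 TPM at T0 and 229 to 305 TPM at T16. Within that sum, SLC30A7 held 14.9% to 21.6% at T0 and 28.9% to 33.1% at T16, while the mean shares of SLC30A2 and SLC30A3 were 13.8% and 12.7% at T0 and 0.899% and 1.42% at T16.

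**Figure D4:**
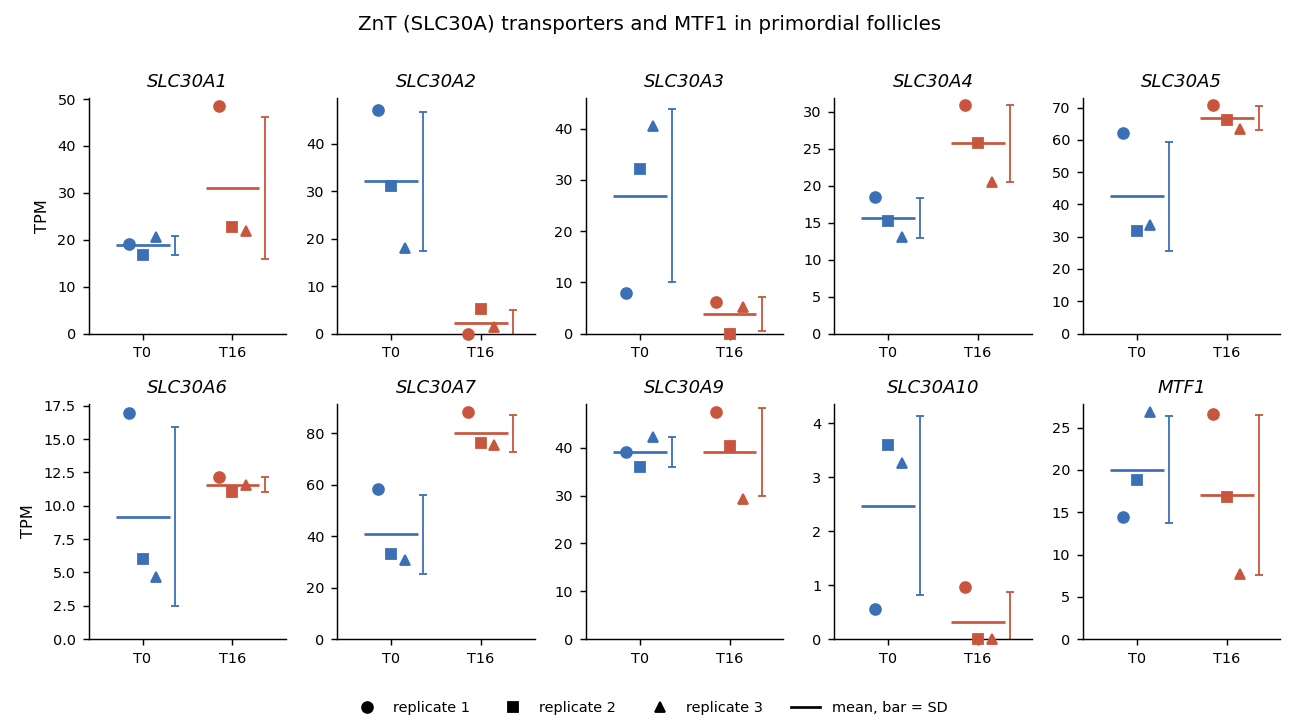
TPM (y axis, from 0) of 9 ZnT genes and MTF1 in the 3 T0 and 3 T16 libraries; symbols mark replicates, lines means and bars the SD, cut at 0. SLC30A1, SLC30A4, SLC30A5 and SLC30A7 sit higher in every T16 library and SLC30A2 and SLC30A3 lower, while MTF1, SLC30A6, SLC30A9 and SLC30A10 overlap.

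The ZIP gene with the highest level in every library was SLC39A7 (ZIP7), which releases zinc from the endoplasmic reticulum. It had 252, 131 and 106 TPM in T0 replicates 1, 2 and 3 and 131, 244 and 235 TPM in T16 replicates 1, 2 and 3. The groups overlapped, with means of 163 ± 78.2 and 203 ± 62.5 TPM (log2 fold change 0.40, SE 0.51, adjusted p = 0.807 in edgeR). Its share of all ZIP TPM was nearly constant, between 34.9% and 41.3% in every library.

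SLC39A9 (ZIP9), a Golgi and plasma membrane protein also described as an androgen receptor, was the one ZIP gene whose groups did not overlap. It was 8.33% of the 12 tested ZIP genes, where 11.5% of all tested genes lay above. It had 13.8, 6.14 and 8.45 TPM at T0 and 17.8, 26.5 and 18.6 TPM at T16. The mean was 2.21 times as high at T16 (21.0 ± 4.77 TPM) as at T0 (9.47 ± 3.95 TPM). The log2 fold change of 1.13 (SE 0.46) had an unadjusted p of 0.0428 and an adjusted p of 0.337 in edgeR.

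The importers known from the oocyte were present in every library. SLC39A6 (ZIP6) had 94.3, 45.1 and 37.7 TPM at T0 and 64.5, 101 and 47.4 TPM at T16. SLC39A10 (ZIP10) had 46.1, 42.1 and 30.8 TPM at T0 and 50.6, 71.7 and 42.5 TPM at T16. Both overlapped between groups, and both were highest in the oocyte-poor T16 replicate 2. edgeR gave log2 fold changes of 0.27 (SE 0.49, adjusted p = 0.869) for SLC39A6 and 0.53 (SE 0.34, adjusted p = 0.564) for SLC39A10.

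SLC39A1 (ZIP1), a general plasma membrane importer, had the second highest ZIP mean in both groups, within the spread of SLC39A6, and in T16 replicate 1 it lay below SLC39A6 and SLC39A10. It had 127, 59.8 and 62.3 TPM at T0 and 31.6, 116 and 93.6 TPM at T16, and a log2 fold change of 0.06 (SE 0.61, adjusted p = 0.984). Its relative SLC39A3 (ZIP3) had 22.8, 15.8 and 7.34 TPM at T0 and 13.4, 44.6 and 32.2 TPM at T16 (log2 fold change 1.28, SE 0.58, adjusted p = 0.387). In SLC39A1, T16 replicate 1 lay below the T0 range, and in SLC39A3 it lay within it.

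SLC39A8 (ZIP8) and SLC39A14 (ZIP14) also carry manganese. SLC39A8 had 52.7, 16.7 and 5.90 TPM at T0 and 10.9, 25.9 and 67.3 TPM at T16, an 11.4-fold range within which the groups lay mixed (log2 fold change 0.57, SE 0.99, adjusted p = 0.867). SLC39A14 had 15.3, 19.8 and 12.9 TPM at T0 and 6.23, 15.1 and 11.5 TPM at T16 (log2 fold change -0.42, SE 0.45, adjusted p = 0.765). Its transcript NM_001098036 gave 45.6%, 74.2% and 10.6% of the gene's TPM at T0 and 3.69%, 16.8% and 19.2% at T16, and these shares overlapped between groups too.

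SLC39A11 (ZIP11) had 15.6, 12.02 and 13.97 TPM at T0 and 3.24, 29.4 and 7.64 TPM at T16, a narrow T0 range inside a wide T16 one (log2 fold change 0.21, SE 0.75, adjusted p = 0.941). Its transcript XM_005221269 held 62.2% and 89.7% of the gene's TPM in T0 replicates 2 and 3 and was listed at 0 in T0 replicate 1 and in all T16 libraries. SLC39A13 (ZIP13), known from connective tissue, had 24.5, 15.5 and 9.74 TPM at T0 and 10.985, 20.4 and 12.1 TPM at T16, with overlapping groups (log2 fold change -0.12, SE 0.54, adjusted p = 0.954).

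The remaining ZIP genes were scarce. SLC39A4, the importer of the gut, ranged from 1.27 to 4.45 TPM at T0 and from 0 to 1.53 TPM at T16 (log2 fold change -1.99, SE 1.63, adjusted p = 0.675). SLC39A12, known from the brain, reached at most 0.932 TPM at T0 and 2.35 TPM at T16 (log2 fold change 2.3, SE 2.18, adjusted p = 0.728). SLC39A5 had 0 to 22 counts in a library, and SLC39A2 had 0 counts in all 6. The summed ZIP level was 668, 365 and 298 TPM in T0 replicates 1, 2 and 3 and 344, 697 and 568 TPM in T16 replicates 1, 2 and 3, and it overlapped between groups.

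**Figure D5:**
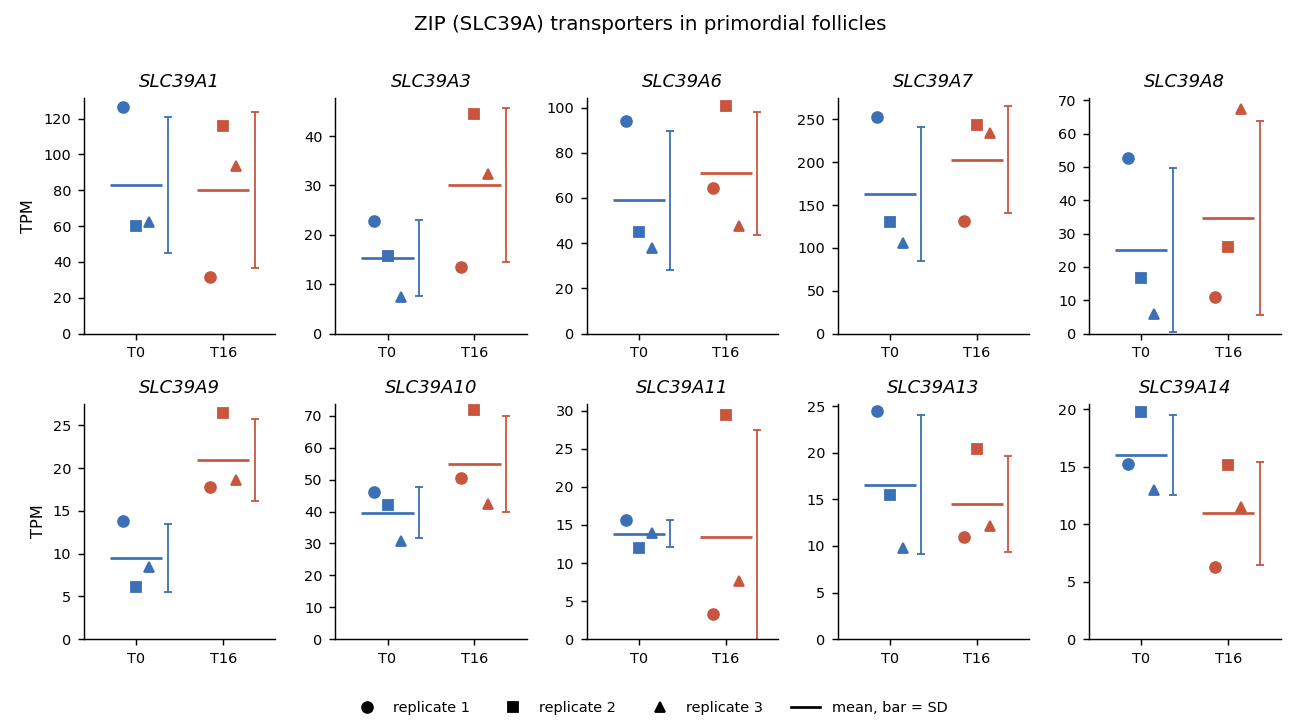
TPM (y axis, from 0) of the 10 ZIP genes with a mean of at least 10 TPM in a group, in the 3 T0 and 3 T16 libraries; symbols mark replicates, lines means and bars the SD, cut at 0. SLC39A9 alone among them has every T16 library above every T0 library, and SLC39A7 has the highest level, between 106 and 252 TPM.

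The calls of DESeq2 for the members depended on single libraries. With T0 replicate 1 or T0 replicate 2 left out it called 0 members lower, and with T0 replicate 3 left out it called MT2A alone. Without T16 replicate 1 it called 4 lower, adding SLC30A2 and SLC30A10 to MT1A and MT2A, and without T16 replicate 2 also 4, with SLC30A3 in place of SLC30A10. Without T16 replicate 3 the calls were MT1A and MT2A. Without T0 replicate 1, 3 members were called higher: SLC39A9 (log2 fold change 1.55, adjusted p = 0.00722), SLC30A5 (1.15, adjusted p = 0.0110) and SLC30A7 (1.45, adjusted p = 0.000947). The share of all genes that DESeq2 called with libraries left out was not counted, so these calls are not read as particular to the members. In edgeR, 1637 of 14298 genes were higher at an unadjusted p under 0.05 without T0 replicate 1, against 1261 of 14639 with all libraries.

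With both oocyte-poor libraries left out, DESeq2 called SLC39A9, SLC30A5 and SLC30A7 higher and SLC30A2 (log2 fold change -4.91, adjusted p = 0.0163) and SLC30A3 (-2.47, adjusted p = 5.3e-05) lower, and it called neither MT1A nor MT2A. edgeR called 0 members in each of these sets of libraries. Over the edgeR settings, the adjusted p ranged from 0.172 to 0.578 for MT2A, from 0.225 to 0.665 for MT1A and from 0.104 to 0.771 for SLC30A7.

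Other genes of zinc, copper and iron handling, 46 in all, were followed as the wider metal pathway, and 42 were tested. edgeR called 0 of them, and 9 had an unadjusted p under 0.05, 3 higher (7.14%, against 8.61% of all tested genes) and 6 lower (14.3%, against 5.14%). DESeq2 called 1 higher (2.38%, against 4.06%) and 3 lower (7.14%, against 2.96%), and their median log2 fold change was -0.09, beside -0.08 over all tested genes. Every T16 library lay above every T0 library for 3 genes (7.14%, against 11.5%) and below for 10 (23.8%, against 11.6%), 4 of the latter being copper genes and 5 iron genes.

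CA2, a zinc enzyme that hydrates carbon dioxide, had 231, 112 and 87.0 TPM at T0 and 1116, 600 and 842 TPM at T16 (log2 fold change 2.62, SE 0.55, adjusted p = 0.111 in edgeR and 0.000141 in DESeq2), and it was the 1 metal gene limma called. TF, the iron carrier transferrin, had 30.5, 25.8 and 12.5 TPM at T0 and 1.74, 3.00 and 2.72 TPM at T16 (log2 fold change -3.11, SE 0.60, adjusted p = 0.104 in edgeR and 7.61e-06 in DESeq2). Both genes had groups far apart, in opposite directions. TFRC, the receptor that takes transferrin up, had 8.07, 7.88 and 2.10 TPM at T0 and 17.5, 35.96 and 9.02 TPM at T16 (log2 fold change 1.81, adjusted p = 0.297 in edgeR). STEAP3, the reductase of endosomal iron and copper, had 8.03, 11.7 and 10.7 TPM at T0 and 2.76, 4.62 and 0.765 TPM at T16 (log2 fold change -1.84, adjusted p = 0.267).

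Of the copper genes, the importer SLC31A1 stood at 80.9, 39.5 and 44.0 TPM at T0 and 105, 126 and 104 TPM at T16 (log2 fold change 1.09, adjusted p = 0.315 in edgeR and 0.171 in DESeq2). The copper pump ATP7A had 9.95, 9.06 and 5.32 TPM at T0 and 2.93, 1.69 and 2.08 TPM at T16 (log2 fold change -1.78, SE 0.46, adjusted p = 0.147 in edgeR and 0.00565 in DESeq2). SLC31A1 was the 1 copper gene of 14 tested with every T16 library above every T0 library (7.14%, against 11.5% of all tested genes). ATP7A was 1 of 4 with every T16 library below (28.6%, against 11.6%). SOD3, the secreted copper and zinc superoxide dismutase, had 23.7, 33.3 and 17.7 TPM at T0 and 2.21, 5.69 and 0.806 TPM at T16 (log2 fold change -2.82, SE 0.73, adjusted p = 0.149 in edgeR and 0.00157 in DESeq2). ALPL, an alkaline phosphatase that carries zinc, had 4.84, 9.50 and 7.25 TPM at T0 and 2.34, 1.25 and 2.29 TPM at T16 (log2 fold change -1.71, adjusted p = 0.310 in edgeR).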

How the data were processed

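Per the labels and the study's methods, cDNA was made with SMART-Seq v4 and the authors used Trim Galore and fastp for trimming and Salmon for quantification on the ARS-UCD1.3 transcriptome. The deposited values are estimated counts and TPM per RefSeq transcript, beside transcript lengths. Both were summed to genes through a RefSeq table of ARS-UCD2.0, matching accessions without version. Of 76123 transcripts, 50205 (66.0%) matched, with 89.1% to 90.3% of a library's counts, and estimated counts were rounded.

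T16 was compared with T0 in 14639 genes that reached 10 counts in 3 or more libraries, by edgeR 4.0.16 (R 4.3.3; TMM, quasi-likelihood test, Benjamini-Hochberg threshold of 0.05). Standard errors were derived from its F statistic. DESeq2 1.42.0, limma 3.58.1 on log2(TPM + 1) and further alternatives are given in the closing section; leaving out libraries in DESeq2 was chosen after seeing the data. An exact permutation test of 3 against 3 libraries cannot give a two-sided p below 0.1 and was not used. The procedure was tested on simulated data.

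Members and lists were chosen with earlier results of these data known. Values per library were given for members with a mean of at least 10 TPM in a group, with groups that did not overlap or with a call, and for every metallothionein. Of the metal genes, those called by either tool and at most 8 with groups that did not overlap and the lowest edgeR p were named.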

Additional observations from a re-analysis of the deposited data

How the results depend on the processing

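edgeR called 5 genes higher and 1 lower over all tested genes. The number higher was 594 with DESeq2, 67 with limma, 0 with the replicate block, 0 without both oocyte-poor libraries and 0 to 2 with a library left out. The number lower was 433 with DESeq2, 36 with limma, 4 with no filter, 2 with a minimum of 50 counts, 0 with the replicate block, 0 without both oocyte-poor libraries and 0 to 1 with a library left out. Of the members, 0 were called by edgeR in any setting, and DESeq2 called 2 lower. The metal genes gave 1 higher and 3 lower with DESeq2 and 1 higher with limma. DESeq2 called 0 to 3 members higher and 0 to 4 lower with a library left out, and 3 higher without both oocyte-poor libraries. The share of all genes called by DESeq2 in these sets of libraries was not counted.

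Of 26 tested members, 19 kept 1 direction in each of the 14 settings in which they passed the filter. SLC39A1 reversed to -0.15 with limma and ran from -0.20 to 0.65 with a library left out. SLC39A11 was -0.31 with the replicate block, -0.03 with the length offset, -0.51 with limma, -0.83 without both oocyte-poor libraries and -0.89 to 0.60 with a library left out. SLC39A13 was 0.01 with the replicate block, 0.15 without both oocyte-poor libraries and -0.42 to 0.41 with a library left out. SLC30A9 was -0.01 at 50 counts, -0.03 with limma and -0.10 to 0.18 with a library left out. With a library left out, SLC39A6 ran from -0.03 to 0.91, SLC39A8 from -0.57 to 1.92, and MTF1 from -0.58 to 0.14. The cause was not tested.

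Same-numbered libraries had deviations from their group mean correlated at -0.445, -0.121 and -0.005. For the oocyte-poor T0 replicate 1 and T16 replicate 2 the value was 0.438. These values cannot decide whether same-numbered libraries are paired, because the oocyte content also differs between libraries. The median log2 fold change of all genes was -0.08 with TMM, -0.14 with DESeq2 size factors, -0.19 with limma and -0.23 with no filter. Genes under 3 counts in every library, such as SLC30A8, cannot be compared at this depth.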
